A study of Homo sapiens with 10 samples.

Results

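After TTF-1 depletion, Smad3 peaks were called at 4047 sites of H441 lung adenocarcinoma cells that had none called with TTF-1 present. These sites, where neither TTF-1 at 0 h nor Smad4 after the depletion had a peak, are called lone gained sites here. They were selected on the peak lists themselves: of the 14145 Smad3 peaks of cells given an siRNA against TTF-1 (siTTF-1), those were taken that shared not a single base with a Smad3 peak of cells given a control siRNA (siControl), a Smad4 peak of siTTF-1 cells or a TTF-1 peak at 0 h. The lone gained sites made up 28.6% of the siTTF-1 Smad3 list and 58.3% of its 6944 peaks without a siControl counterpart. The siControl list is shorter, at 8941 peaks, and among the 8941 siTTF-1 peaks with the lowest numbers 1731 were lone gained sites. Of the other gained peaks, 2602 had a TTF-1 0 h peak and 385 a Smad4 peak, and 90 of these had both.

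Smad3 is a transcription factor that receptors of the TGF-β family phosphorylate at the cell membrane. It then enters the nucleus, usually in a complex with the shared partner Smad4, and binds short DNA elements with low affinity of its own. Where it settles therefore depends much on other DNA-binding proteins of the cell. TTF-1 (NKX2-1), a homeodomain factor that directs the development of lung epithelium, is one such protein.

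Binding sites were mapped by chromatin immunoprecipitation with sequencing (ChIP-seq), in which DNA bound by a protein is isolated with an antibody and regions rich in reads are called as peaks. The lists used were Smad3 in siTTF-1 H441 cells, Smad4 in siTTF-1 H441 cells, Smad3 in A549 cells, Smad3 in siControl H441 cells, and TTF-1 in H441 cells at 0 h and 1.5 h. H441 expresses TTF-1 and A549, another lung adenocarcinoma line, is labelled TTF-1 negative. The treatment label gives TGF-β3 at 1 ng/ml for 1.5 h for all of them, also for the TTF-1 library titled 0 h. No siRNA is named for the TTF-1 libraries, so a site "without TTF-1" lacked a 0 h peak in those other cells, and TTF-1 was not mapped after its depletion. The false discovery rate allowed in peak calling was 10% for Smad4, 5% for A549 and 1% for the other lists. Each condition was 1 library, and the lists hold no read counts, so the depth is unknown and no difference between conditions can be set against replicate spread. A site missing from a list means that no peak was called there, not that the protein was absent. Positions are on hg18, counted from 1. Sites are given by position, since genes near them and their sequences were not analysed here.

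Some lone gained sites overlapped a peak of the 2 lists that the rule does not name. A total of 3705 of the 4047 (91.5%) overlapped neither a Smad3 peak of A549 cells nor a TTF-1 peak at 1.5 h. Smad3 was called at 214 of them in A549 cells, TTF-1 was called at 137 of them at 1.5 h, and 9 sites had both. Of all siTTF-1 Smad3 peaks, 10.3% had an A549 peak and 54.1% a TTF-1 1.5 h peak. The 1.5 h list shares most of its peaks with the 0 h list that the rule excludes, so the low number with TTF-1 at 1.5 h is largely set by the rule. None overlapped the only Smad4 peak called in siControl cells. For comparison, 3 classes of siTTF-1 Smad3 peaks that differ from the lone gained sites by 1 part of the rule were taken. Lone kept sites (753) had a siControl Smad3 peak, gained TTF-1 sites (2512) had a TTF-1 0 h peak, and gained Smad4 sites (295) had a Smad4 peak.

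The A549 list took no part in the choice of sites and asks whether Smad3 was bound at the same places in a lung line without TTF-1. Smad3 was called in A549 cells at 5.29% of the lone gained sites (214 of 4047, exact binomial 95% interval 4.62 to 6.02). This was below the 10.3% of all siTTF-1 Smad3 peaks, but lone gained sites stood later in that list (median peak number 9660, against 7073). In strata 1 and 2 of 5 equal strata by peak number, the shares were 7.95% and 8.20%, against 24.1% and 11.7% of all peaks. In strata 3 to 5 they were close, at 6.83%, 4.85% and 3.18% against 7.21%, 5.02% and 3.61%. At positions 25 kb to either side of the lone gained sites, 0.346% had an A549 peak. The share was 10.8% (81 of 753, 8.63 to 13.2) at the lone kept sites, 5.53% (139 of 2512, 4.67 to 6.50) at the gained TTF-1 sites and 15.3% (45 of 295, 11.3 to 19.9) at the gained Smad4 sites.

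Lone gained sites carried an A549 peak less often than lone kept sites, with a difference of -5.47 percentage points (Newcombe 95% interval -7.97 to -3.32 points; Fisher's exact test, two-sided, Benjamini-Hochberg adjusted over 6 comparisons, p = 1.3e-07). Against the gained Smad4 sites the difference was -9.97 points (-14.6 to -6.24; adjusted p = 3.2e-09, same exact test), and -7.74 points within 5 equal strata of the peak number. In the first of these strata 22 of 62 gained Smad4 sites had an A549 peak (35.5%, 23.7 to 48.7), which is 22 of the 45 in all. In the next 2 strata the shares were 8.20% and 6.83% for lone gained sites and 10.0% and 10.3% for gained Smad4 sites. In the last 2 strata they were 4.85% and 3.18% for lone gained sites. For gained Smad4 sites they were 9.30% (4 of 43) and 9.52% (4 of 42) there. Against the gained TTF-1 sites no difference was detected: the lone gained share minus the gained TTF-1 share was -0.25 points, with an interval from -1.41 to 0.86 (adjusted p = 0.74, same exact test). Peaks of 1 library are not replicates of a condition, so these tests compare groups of peaks in these lists. Lone kept and gained Smad4 sites were chosen for a peak in another Smad library, and lone gained sites for having none there. Whether sites called in another Smad library are called more readily in any such library was not tested. The p-values therefore do not tell that apart from a trait of the lone gained sites. The difference from the lone kept sites was -3.30 points within 5 equal strata of the peak number (Mantel-Haenszel odds ratio 0.643, 95% interval 0.475 to 0.869), -3.45 points within strata of width and -3.38 points with centres within 200 bp as the overlap. When a shared site had to cover 50% of the peak, the differences from the lone kept and gained Smad4 sites were -8.87 and -5.33 points (adjusted p = 1.4e-22 and 0.037, exact test). The 200 bp and 50% rules also redrew the classes, to 1324 and 1177 lone kept sites and to 285 and 105 gained Smad4 sites. The 50% comparison with gained Smad4 sites therefore covers a smaller class, of which 10.5% had an A549 peak.

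**Figure D1:**
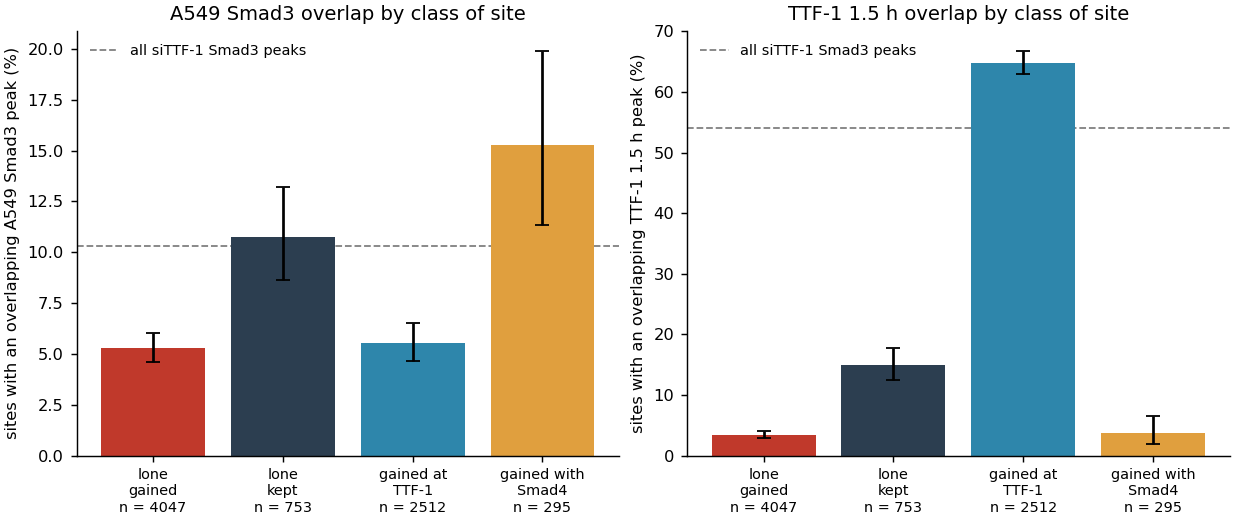
Share of sites in each class that overlapped an A549 Smad3 peak (left, %) or a TTF-1 1.5 h peak (right, %), with exact binomial 95% intervals. The dashed line is the share over all 14145 siTTF-1 Smad3 peaks. Lone gained sites lay at 5.29% for A549, beside 5.53% for gained TTF-1 sites, and at 3.39% for TTF-1 1.5 h, beside 3.73% for gained Smad4 sites.

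Where Smad3 was called in both lines, the peak centres lay close together. Between a lone gained site and its A549 peak the median distance of the centres was 75 bp, and 84.1% of the pairs were within 200 bp. In lone kept sites the median was 100 bp and the share 76.5%. The values were 75 bp and 83.5% for gained TTF-1 sites, and 100 bp and 86.7% for gained Smad4 sites. Over all siTTF-1 Smad3 peaks with an A549 peak they were 75 bp and 80.7%, so close centres were not particular to lone gained sites. Seen from A549, 215 of the 2535 Smad3 peaks (8.48%) met a lone gained site. Their median peak number in the A549 list was 1378, against 1268 for the whole list, and their median width was 599 bp, against 649 bp. Of the 419 A549 peaks that met a siTTF-1 but no siControl Smad3 peak of H441, 213 (50.8%) fell on lone gained sites, 32.0% on gained TTF-1 sites and 10.7% on gained Smad4 sites. Of all 6944 gained siTTF-1 peaks, 58.3% were lone gained sites, 37.5% had a TTF-1 0 h peak and 5.54% a Smad4 peak. The last 2 values share the 1.30% that had both. Of these 215 A549 peaks, 4 also overlapped a TTF-1 0 h peak beside the lone gained site, and 2 a Smad4 peak.

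The peak number runs from 1 to the length of each list, and its meaning is not stated. The A549 share of the lone gained sites was lower at high numbers and at narrow widths, as it was over all siTTF-1 Smad3 peaks. Over all these peaks it was 24.1%, 11.7%, 7.21%, 5.02% and 3.61% from the first to the last stratum of number. By width it was 2.72% in the narrowest and 23.6% in the widest stratum of all these peaks. In the stratum with the lowest numbers 12 of 151 lone gained sites had an A549 peak (7.95%, 4.17 to 13.5), and in the next 8.20%, 6.83% and 4.85%. In the last stratum it was 43 of 1351 (3.18%, 2.31 to 4.26). The lone kept sites had 13.9%, 13.4%, 8.02% and 7.14% in the first 4 of these strata and 3 of 75 in the last. In the narrowest stratum of width 3.24% (2.32 to 4.41) of the lone gained sites and 1.59% (0.193 to 5.62) of the lone kept sites had one. In the widest stratum the shares were 12.8% (9.54 to 16.7) and 18.8% (13.6 to 24.9). Lone gained sites were the lower class in every stratum of the peak number and in all strata of width but the narrowest, and the intervals of the classes overlapped in every stratum.

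**Figure D2:**
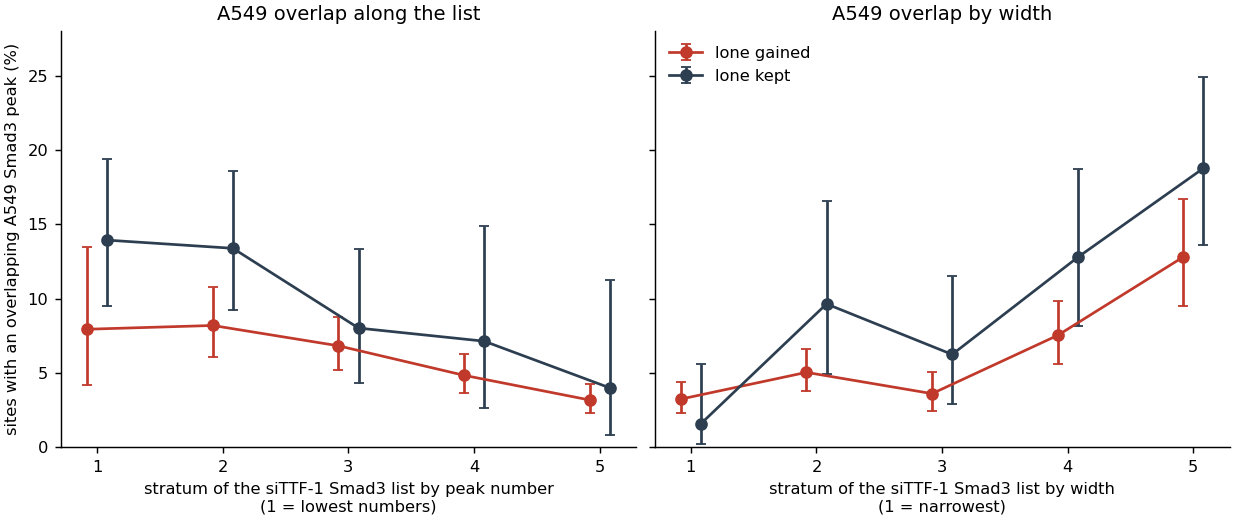
Share of lone gained and lone kept sites with an overlapping A549 Smad3 peak (%), in 5 equal strata of all siTTF-1 Smad3 peaks by peak number (left) and by width (right), with exact binomial 95% intervals. The share of lone gained sites was 7.95% at the head of the list and 3.18% at its end, and 12.8% among the widest peaks.

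TTF-1 was called at 1.5 h at 137 of the lone gained sites (3.39%, 2.85 to 3.99) and at 1.89% of positions 25 kb away. Of the 21291 TTF-1 1.5 h peaks, 20399 overlap a 0 h peak, and every site with a 0 h peak was left out by the rule, so the gap to the 54.1% of all siTTF-1 Smad3 peaks follows largely from the choice of sites. Lone kept and gained Smad4 sites also lack a 0 h peak. The share was 15.0% (12.5 to 17.8) at lone kept sites, 64.8% (62.9 to 66.7) at gained TTF-1 sites and 3.73% (1.88 to 6.57) at gained Smad4 sites. The difference from the lone kept sites was -11.6 points (-14.4 to -9.17, Fisher's exact test, two-sided, adjusted p = 9.7e-30). It was -19.9 points when overlap meant centres within 200 bp, but that rule also redrew the classes, as overlap away from the centre no longer counted. The shares were then 4.99% of 4690 lone gained and 24.8% of 1324 lone kept sites. The difference from the gained TTF-1 sites, at -61.4 points (-63.3 to -59.4), repeats the split by the 0 h list in a second library. No difference from the gained Smad4 sites was detected (-0.34 points, -3.21 to 1.40, adjusted p = 0.74 by the same exact test). The TTF-1 1.5 h peaks at lone gained sites stood late in their own list, with a median peak number of 18856 of 21291. They were narrow as well, with a median width of 349 bp, against 599 bp for the list. A late place was not particular to them: the median number was 18139 at lone kept and 16977 at gained Smad4 sites. At gained TTF-1 sites, which have a 0 h peak, it was 12819. The median width at lone kept sites was also below that of the list, while at gained Smad4 sites it was above it.

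Width and place in the list come from the library that chose the sites and are given without a test. Lone gained sites were 149 to 2249 bp wide with a median of 499 bp, and together they covered 2.15 Mb. The median was also 499 bp for gained TTF-1 sites, and 649 bp for both lone kept and gained Smad4 sites. In the list, the lone gained sites ran from number 192 to number 14145, the last, with a median of 9660. The median number was 4866 for lone kept, 10002.5 for gained TTF-1 and 6141 for gained Smad4 sites. Lone gained sites made up 5.34% of the first stratum of the list, and 19.8%, 30.01%, 40.1% and 47.8% of the following ones. Only 151 of them stood in the first stratum, and 1351 in the last. Gained TTF-1 sites rose as well, from 1.63% of the first stratum to 30.6% of the last. Sites of 1000 bp or more numbered 148, or 3.66% of the lone gained sites, compared with 10.7% of all siTTF-1 peaks. Of these wide lone gained sites 20 had an A549 peak (13.5%, 8.45 to 20.1), against 29.4% (27.1 to 31.8) of all siTTF-1 peaks of that width. The wide lone gained sites stood later in the list, with a median peak number of 6675.5 against 2318, so the 2 groups differ in more than class.

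**Figure D3:**
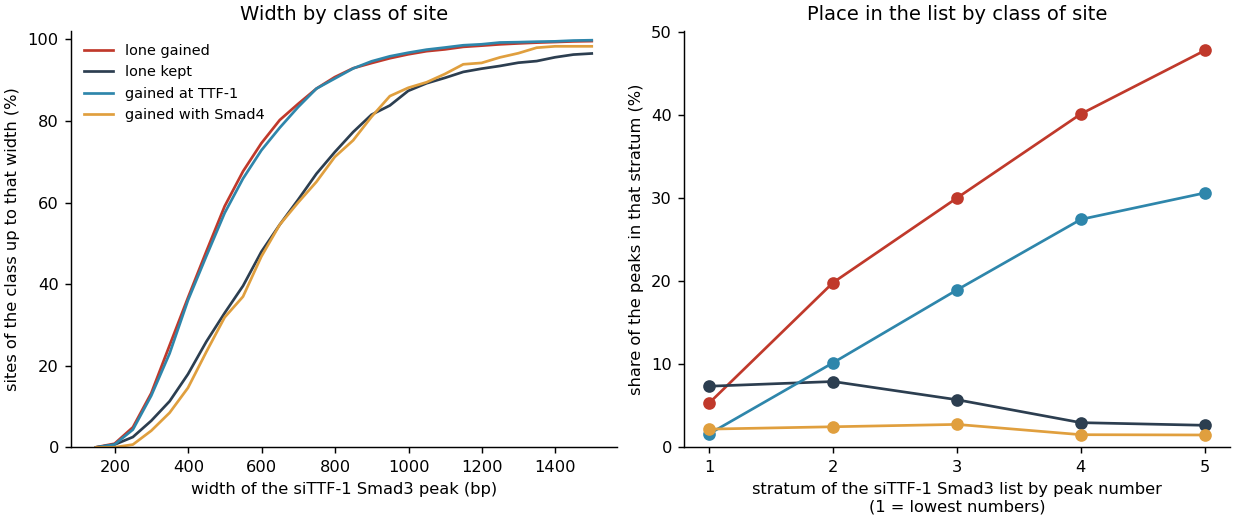
Left, cumulative share of the sites of each class (%) up to a given peak width (bp), cut at 1.5 kb. Right, share of each class among the peaks (%) of 5 equal strata of the siTTF-1 Smad3 list by peak number. The lone gained curve lies at 5.34% in the first stratum and 47.8% in the last. Gained TTF-1 sites also rise, from 1.63% to 30.6%, while lone kept sites go from 7.35% to 2.65%.

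Of the lists the rule excludes, the TTF-1 0 h list, the longest, had the nearest peaks. The median distance from their edge to the nearest TTF-1 0 h peak was 18201 bp, to the nearest siControl Smad3 peak 52501 bp and to the nearest Smad4 peak 370751 bp. Within 10 kb, 37.1% had a TTF-1 0 h peak, 21.9% a siControl Smad3 peak, 11.4% an A549 Smad3 peak and 7.34% a Smad4 peak. The A549 value includes the 5.29% of sites that overlapped an A549 peak, whereas the rule allows no overlap with the other lists. The lists differ in length, so these distances cannot be ranked as affinities. Lone kept sites lay closer to TTF-1, with a median of 11601 bp to the nearest 0 h peak and 47.1% within 10 kb. Peaks that siControl cells had and siTTF-1 cells lacked, which the authors deposited as a list of 1718, were near few of them: 2.74% of the lone gained sites had one within 10 kb, compared with 5.33% of all siTTF-1 Smad3 peaks. Lone gained sites with an A549 peak had a TTF-1 0 h peak within 10 kb in 44.4% of cases and a siControl Smad3 peak in 30.8%. Those without an A549 peak had them in 36.7% and 21.4%.

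Few sites sat at the edge of the rule. A total of 23 lone gained sites had a siControl Smad3, Smad4 or TTF-1 0 h peak within 100 bp without touching it, and 13 peaks missed the class by an overlap of at most 100 bp. Within 1 kb, 415 lone gained sites (10.3%) had a peak of any of the 3 lists. A siControl Smad3 peak stood within 1 kb of 213 of them, and in 198 of these cases the nearest was itself still called in siTTF-1 cells. Most siControl peaks were still called in any case: of all 8941, the deposited list of those lacking in siTTF-1 cells holds 1718. 

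**Figure D4:**
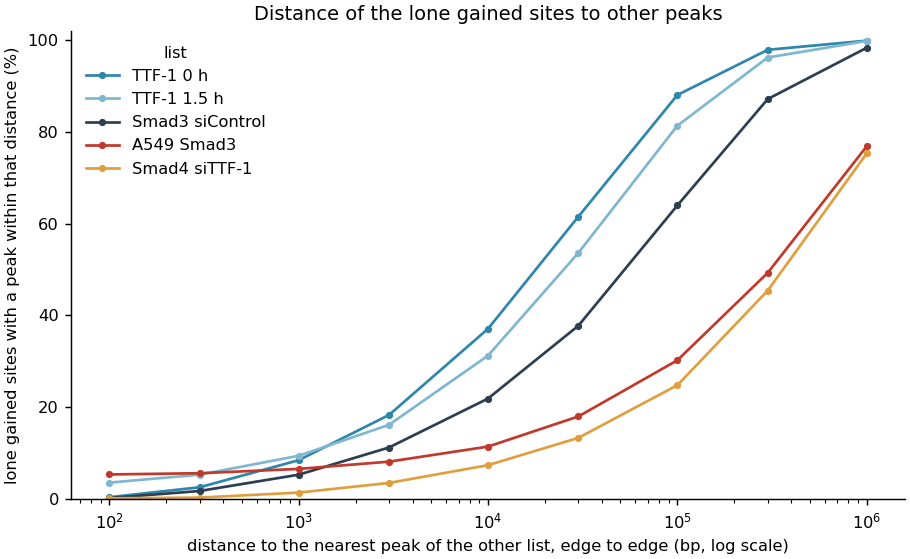
Share of the 4047 lone gained sites (%) with a peak of each other list within a given distance, edge to edge (bp, log scale). At 100 bp, where the curves start, A549 and TTF-1 1.5 h stood at 5.31% and 3.53%, nearly all of it overlap (5.29% and 3.39%). The other curves start near 0 by the rule, and 37.1% had a TTF-1 0 h peak within 10 kb.

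Lone gained sites occurred on all 22 autosomes and X, in 1712 windows of 1 Mb, of which 659 held a single one. The next lone gained site was a median of 95951 bp away, and the next siTTF-1 Smad3 peak of any class 18401 bp. Another siTTF-1 Smad3 peak lay within 10 kb of 1563 of them (38.6%). For 746 sites (18.4%) no other siTTF-1 Smad3 peak was called within 100 kb. Joining lone gained sites no more than 10 kb apart left 3326 of them alone (82.2%), 305 pairs and 35 longer runs. Such spacing was not measured for all siTTF-1 Smad3 peaks or the other classes, so whether it is particular to these sites was not tested. The share of siTTF-1 Smad3 peaks that were lone gained sites ranged from 24.4% on chromosome 15 (97 of 397, exact 95% interval 20.3 to 29.0) to 32.7% on chromosome 19 (100 of 306, 27.5 to 38.2), and these intervals overlap. Among the lone gained sites of a chromosome, an A549 peak was found at 2.91% on chromosome 12 (6 of 206, 1.08 to 6.23) to 12.8% on chromosome 21 (6 of 47, 4.83 to 25.7).

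The longest run, singled out after its values were seen, held 5 lone gained sites on chromosome 5 between 135393151 and 135416249. It lies at higher coordinates than the siTTF-1 peak with number 1 (135383501 to 135385099), a peak shared with siControl cells. The first of the 5 (135393151 to 135395149) began 8051 bp after that peak and is also among the widest lone gained sites. The others were 135403651 to 135403999, 135404301 to 135405999, 135406501 to 135407099 and 135415701 to 135416249. Their peak numbers were between 5207 and 13377, and none had an A549 peak, the last of them lying 1001 bp from one.

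None of the 5 lone gained sites with the lowest peak numbers overlapped an A549 peak. Number 192 lay on chromosome 19 (47132101 to 47133099), 31101 bp from the nearest TTF-1 0 h peak and 79851 bp from the nearest siControl Smad3 peak. Number 194 lay on chromosome 3 (175178201 to 175178949), with no other siTTF-1 Smad3 peak within 219801 bp. Their nearest A549 peaks were 609051 and 1227851 bp away. Number 251 lay on chromosome 7 (100544001 to 100545049), where the nearest A549 peak was 2151 bp and the nearest Smad4 peak 2351 bp away, while the nearest siControl Smad3 peak was 23251 bp away. Number 430 (chromosome 7, 33683601 to 33684299) had an A549 peak at 7751 bp and the next siTTF-1 Smad3 peak at 301701 bp. Number 533 (chromosome 6, 21964301 to 21965049) lay 9051 bp from a TTF-1 0 h peak.

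The 5 widest lone gained sites differed in what lay near them. The widest, at 2249 bp, was on chromosome 22 (29148701 to 29150949, number 5096) and had a Smad4 peak 1951 bp away. The second, 2199 bp on chromosome 1 (42099651 to 42101849, number 5204), covered A549 peak number 1792 (42101151 to 42101649). The third, 2049 bp on chromosome 5 (73563451 to 73565499, number 5606), had its nearest TTF-1 0 h peak at 7901 bp. The remaining pair were 1999 bp wide. One, on chromosome X (71756751 to 71758749, number 3619), overlapped both A549 peak number 1482 (71756851 to 71758399) and a TTF-1 1.5 h peak, and the other is the first site of the run on chromosome 5, at number 11516. Thus 2 of the 5 had an A549 peak.

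Among lone gained sites with an A549 peak, the lowest number was 540, on chromosome 1 (188255551 to 188255949). It lies inside A549 peak number 793 (188255351 to 188256349) and 2651 bp from the nearest TTF-1 0 h and siControl Smad3 peaks. Number 838, on chromosome 21 (39096601 to 39097049), lies inside A549 peak number 909 (39096301 to 39097349) and 1601 bp from a TTF-1 0 h peak. At both sites the A549 peak was the wider one. Number 847, on chromosome 3 (152966901 to 152967499), shared its start with A549 peak number 385 (152966901 to 152967449) and was remote from the other lists, with the nearest siControl Smad3 peak at 209301 bp and the nearest TTF-1 0 h peak at 123701 bp. Number 1026, on chromosome 4 (129462751 to 129464249), contained A549 peak number 1220 (129462851 to 129463349). Number 1732, on chromosome 7 (5562001 to 5563399), overlapped A549 peak number 2475 (5561951 to 5562499), which stands near the end of the A549 list.

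The 1 Mb windows with the most lone gained sites held peaks of the other lists as well. The window from 115000001 to 116000000 on chromosome 1 held 11 lone gained sites among 28 siTTF-1 Smad3 peaks, with 12 siControl Smad3 and 26 TTF-1 0 h peaks. The window from 199000001 to 200000000 on chromosome 1 also held 11, among 15 siTTF-1 peaks, with 5 siControl peaks. A total of 10 lay in the window from 181000001 to 182000000 on chromosome 1, and the same number in 2 further windows on chromosomes 3 and 6. Of the 3 windows on chromosome 1, that starting at 199000001 had an A549 peak at 1 lone gained site and the others at none, while those on chromosomes 3 and 6 had one at 2 and 1 of their lone gained sites.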

How the data were processed

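Peak lists of 7 ChIP-seq libraries (10 samples, of which 3 are input DNA not analysed here) were used as the authors deposited them, grouped by title. Peaks were called on single libraries at the stated false discovery rate limits and the build was hg18, per the labels and the submitters' processing notes. For aligner and peak caller: not given in the sources used here. The deposited score was 1000 for every peak and was not used. The peak number, which the authors deposited with each peak, was used as a place in the list. No counts or depths were available. One track line was skipped, and 1 was added to each deposited start.

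Overlap meant at least 1 bp. All 4047 lone gained sites were in the authors' list of siTTF-1 Smad3 peaks without TTF-1. Shares have Clopper-Pearson 95% intervals, differences Newcombe intervals and Fisher's exact tests, adjusted over 6 comparisons; these cover counting error only. Strata are 5 equal parts of the siTTF-1 Smad3 list. The code was tested on simulated data and against bedtools 2.31.1. Sites, classes and tests were chosen with earlier results of these data known. Named sites are the 5 widest, the 5 with the lowest peak numbers, the 5 lowest with an A549 peak and the 3 fullest 1 Mb windows (ties in chromosome order). Python 3.11.15, SciPy 1.17.1, statsmodels 0.14.6 and matplotlib 3.10.9 were used.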

Additional observations from a re-analysis of the deposited data

How the results depend on the processing

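The number of lone gained sites was 2317 in the wider 50% of each list, and 1731 among the 8941 siTTF-1 Smad3 peaks with the lowest numbers, as many as the siControl list holds; this last alternative was chosen after seeing the data. Fewer peaks entered both counts by construction. Under the other 6 rules it lay between 3804 (edges within 500 bp) and 4690 (centres within 200 bp). The A549 differences from lone kept and gained Smad4 sites kept their direction and stayed under an adjusted p of 0.05 in all 10 alternatives each, from -8.87 to -3.30 and from -13.2 to -5.33 points. The A549 difference from gained TTF-1 sites stayed between -0.40 and 0.31 points and was not called in any of 10. For TTF-1 1.5 h, the difference from lone kept sites ranged from -19.9 to -9.87 points over 9 alternatives, and that from gained Smad4 sites from -0.98 to 2.61 points without a call. The alternatives for genes and motifs were not run, since no hg18 reference was used. No paired analysis was possible because each condition had 1 library. The depth is unknown, so whether uncalled sites were bound below the calling limits could not be measured.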
